A study of Homo sapiens with 72 samples.

Results

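U2OS cells, a human osteosarcoma line, were grown in wells and given homoharringtonine (code LEE837 in the sample labels) at 100 nM, 1000 nM or 10000 nM for 12 h, and population RNA-seq was made from each well. The step from 100 to 1000 nM was examined here: the 3 wells titled 1000 nM against the 3 titled 100 nM, 6 of the 72 wells of the series, assigned to their dose by their titles. Both groups received the same compound for the same time, in separate wells. The comparison shows how wells at 1000 nM differed from wells at 100 nM. Steps, rises and falls below compare such wells and do not follow the same cells from dose to dose. The 3 wells at 10000 nM, 17 wells given the solvent DMSO (an 18th, with 0.459 mil counts, was left out of DMSO ranges and medians) and the same dose step of miglitol, an inhibitor of gut glucosidases, are given for scale. The labels give no genetic change in these cells. They do not say either whether wells of a dose came from separate cultures, so p-values measure the spread between these wells, which may be technical.

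Homoharringtonine is a plant alkaloid that binds the large ribosomal subunit and blocks the first rounds of peptide bond formation, so that ribosomes which have just begun a message stall while those already elongating run off. Short-lived proteins are lost first under such compounds. Messages of immediate early genes, many of which carry AU-rich elements and are normally made and destroyed within minutes, are known to accumulate when translation is blocked, a response called superinduction. The study lists EIF4E, the cap-binding translation factor, as the target of this compound.

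Expected counts of the genes summed to 34.9 to 41.6 mil per well at 100 nM and 42.0 to 57.4 mil at 1000 nM. Levels below are CPM (counts relative to a library's total, scaled by TMM), which sets the bulk of genes equal between wells, and every fold change is relative to that bulk. Wells of a dose were not alike in GC content: the change of log2 level per 10 percentage points of a gene's GC was -0.081, 0.041 and 0.318 at 100 nM and 0.407, -0.006 and -0.225 at 1000 nM, and 1000 nM replicate 1, which had the highest slope, stood apart from its replicates (root mean square log2 difference 0.643 and 0.822, against 0.416 between the other two) and had the lowest mitochondrial mRNA share (0.156% against 0.184 to 0.285% in the other 5 wells). Synthetic spike-in RNAs took 0.243, 0.181 and 0.0808% of all counts at 100 nM and 0.072, 0.0513 and 0.0199% at 1000 nM, against 0.0158 to 0.51% in 17 DMSO wells. Scaled to these RNAs instead, the log2 fold changes move up by a median of 2.01, and 631 of 776 falls below become rises. Every direction given here therefore holds relative to the bulk of genes. The shift differed between genes, so 2.01 does not settle the sign of each single fall per spike-in. How much spike-in each well received is not given in the sources used here. In bulk libraries a difference in cell number and a difference in RNA per cell cannot be told apart. Of 10 markers of the mesenchymal and bone-forming lineage 8 had a median of at least 1 TPM (a level per transcript length), with TWIST1 and COL1A2 below it, and their summed level was 2476 to 2745 TPM at 100 nM and 1843 to 2066 TPM at 1000 nM. Of 16 markers of other cell types 3 (EPCAM, VWF and SNAP25) had a median of at least 1 TPM, CD3E was at 0 in all 6 wells, and the sums were 13.2 to 14.1 and 12.4 to 15.7 TPM.

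Relative to the bulk of genes, the step to 1000 nM went with rises of EGR4, EGR2, ATF3, FOS and FOSB among immediate early factors and of the clock repressors NR1D1 and PER1. INHBA, LIF, IGF2, EGFR and MYC fell, as did 8 of 16 matrix genes and 19 of 32 genes of ribosome biogenesis. Of 17488 genes tested, 1723 rose (9.85%) and 1653 fell (9.45%) at an adjusted p under 0.05 by edgeR's quasi-likelihood test with Benjamini-Hochberg adjustment. Past 2-fold as well, 1060 rose (6.06%) and 776 fell (4.44%). All 1000 nM wells lay above all 100 nM wells for 3451 genes (19.7%) and below them for 3205 (18.3%), and the median change over all genes tested was 0.03 on the log2 scale. Without 1000 nM replicate 1 the counts past 2-fold were 1388 and 1055. They were 501 and 455 without 1000 nM replicate 2, 466 and 497 without 100 nM replicate 2, and 649 and 629 without 100 nM replicate 1. With library sizes alone as the scale, 1340 rose and 639 fell, 67.7% rises against 57.7%. The same step of miglitol gave no gene at an adjusted p under 0.05 with edgeR or DESeq2, with 114 of 17111 genes at an unadjusted p under 0.05 by edgeR and 61 by DESeq2.

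**Figure D1:**
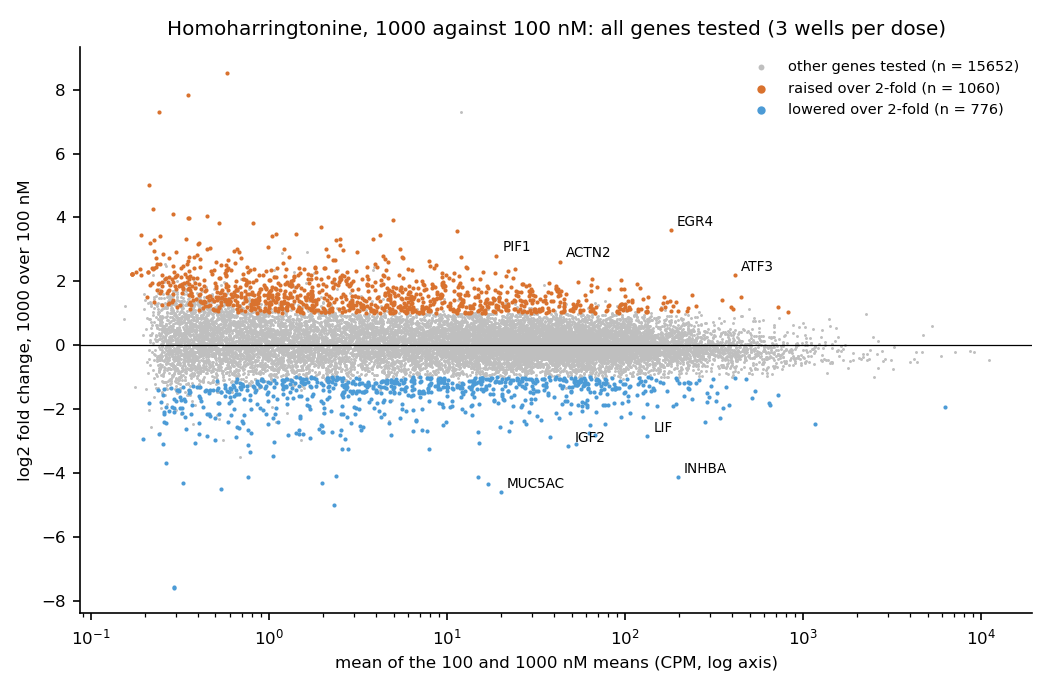
Log2 fold change of 1000 over 100 nM homoharringtonine (3 wells each, edgeR) against the mean level in CPM on a log axis, 1 point per gene tested. Orange points are the 1060 genes raised over 2-fold and blue points the 776 lowered over 2-fold at an adjusted p under 0.05, relative to the bulk of genes, and 8 of the named genes are labelled.

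EIF4E itself was not called. Its level was 155, 125 and 94.9 CPM in the 100 nM wells and 59.4, 109 and 120.0 CPM in the 1000 nM wells, so the groups overlapped, and its log2 fold change was -0.40 ± 0.30 (SE) at an adjusted p of 0.39. The DMSO wells had a median of 78.8 (range 48.6 to 111) CPM.

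Among protein-coding genes of at least 10 CPM on average whose wells did not overlap, the largest rise was that of EGR4, a zinc finger factor of the early growth response family. EGR4 stood at 23.6, 25.7 and 31.8 CPM in the 100 nM wells and at 413, 327 and 261 CPM in the 1000 nM wells. The groups did not overlap, the log2 fold change was 3.61 ± 0.22 (SE, n = 3 and 3; adjusted p 0.00064), and the mean was 549 CPM at 10000 nM (second step 0.74 ± 0.17, adjusted p 0.052), against a median of 0.125 CPM in DMSO. ATF3, a stress-induced factor of the ATF/CREB family, had the highest level per length of the 8 at 1000 nM, 549 TPM. It stood at 144, 147 and 152 CPM at 100 nM and 697, 711 and 627 CPM at 1000 nM, a log2 fold change of 2.19 ± 0.12 (adjusted p 0.0006). The wells of each dose lay close together and far from those of the other. ACTN2, the alpha-actinin of muscle Z-discs, rose from 11.3, 11.4 and 13.1 CPM to 91.2, 69.9 and 60.3 CPM, and TEX14, known from intercellular bridges of germ cells, from 4.39, 3.86 and 3.38 CPM to 19, 25 and 20.7 CPM. Their DMSO medians were 0.639 and 0.406 CPM, and the doses overlapped for neither.

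The other 4 large rises set out from levels within or below the range of DMSO wells, except for 1 well of PILRB. PIF1, a DNA helicase of telomeres and G-quadruplexes, had 3.50, 4.87 and 5.75 CPM at 100 nM, below all 17 DMSO wells (12.4 to 29.0 CPM), and 39.9, 30.6 and 28.6 CPM at 1000 nM, of which 1 was just under the highest of them (log2 fold change 2.80 ± 0.23, adjusted p 0.00076). FGFR3, a fibroblast growth factor receptor, went from 3.95, 3.38 and 4.84 CPM to 25.3, 22.5 and 17.3 CPM around a DMSO median of 5.87 CPM. CPT1B, the muscle form of carnitine palmitoyltransferase, went from 5.13, 6.51 and 7.34 CPM to 36.6, 30.4 and 24.7 CPM. PILRB, an activating immune-type receptor, was the most variable at 100 nM, with 3.52, 7.30 and 12.1 CPM against 53.7, 36.4 and 30.6 CPM at 1000 nM, and its adjusted p of 0.0097 became 0.051 without 100 nM replicate 2. CPT1B shares its span with the readthrough gene CHKB-CPT1B, and PILRB with PILRA and a readthrough lncRNA, so that the counting may have divided reads among them.

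The 8 largest falls began with MUC5AC, a gel-forming mucin, which fell from 33.3, 27.9 and 54.1 CPM at 100 nM to 1.75, 1.73 and 1.33 CPM at 1000 nM (log2 fold change -4.59 ± 0.30, adjusted p 0.00064). INHBA, whose product forms activin A, was the highest per length of the falls at 100 nM (159.6 TPM) and went from 398, 365 and 356 CPM to 22.1, 18 and 24.6 CPM (-4.13 ± 0.17, adjusted p 0.00034), beside a DMSO median of 27.5 (range 19.8 to 38.2) CPM. LIF, a cytokine of the interleukin-6 family, went from 206, 225 and 268 CPM to 44.6, 26.1 and 27.1 CPM with a DMSO median of 24.0 CPM. For all 3 genes every 100 nM well lay above the DMSO wells and above both higher doses. INHBA and LIF overlap antisense lncRNAs, and whether the counting used strand is not given in the sources used here.

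LPAR6, a lysophosphatidic acid receptor encoded within RB1 on the opposite strand, fell from 40.1, 31.0 and 26.3 CPM to 1.31, 1.29 and 2.25 CPM (-4.34 ± 0.30), and BCL2A1, an anti-apoptotic BCL2 relative and NF-kB target, from 40.8, 27.2 and 16.5 CPM to 0.901, 1.73 and 2.22 CPM (-4.14 ± 0.45, adjusted p 0.0018). At 1000 nM the BCL2A1 wells lay within the spread of DMSO (0.953 to 12.3 CPM) except for 1 below it. IGF2, a fetal growth factor, fell from 78.8, 68.2 and 110.4 CPM to 11.2, 8.90 and 8.64 CPM, below all DMSO wells (20.8 to 37.8 CPM), and it shares its span with INS-IGF2. EXD3, which holds an exonuclease domain, fell from 25.7, 22.9 and 32.2 CPM to 3.91, 2.80 and 3.14 CPM (-3.05 ± 0.20). RASGEF1C, an exchange factor for Ras-like GTPases, fell from 61.3, 57.8 and 80.9 CPM to 12.2, 8.11 and 7.15 CPM (-2.88 ± 0.25). All 16 genes were called with DESeq2 and with GC-corrected counts as well, and 15 of them with any 1 well left out, PILRB being the exception. Other settings were harsher: of all 147 named genes, 87 lost their call with replicate number as a block and 98 scaled to mitochondrial mRNAs. Those losses are not broken down here for these 16.

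**Figure D2:**
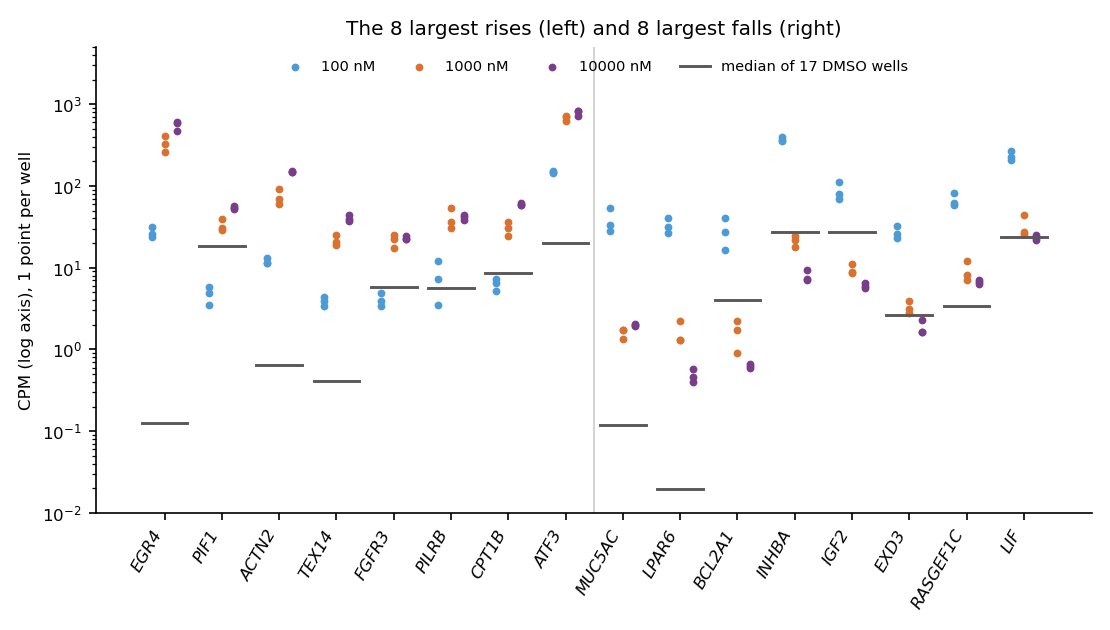
Level in CPM (log axis) of 16 protein-coding genes, the 8 that rose the most (left) and the 8 that fell the most (right) from 100 to 1000 nM, 1 point per well at 100, 1000 and 10000 nM and a bar at the median of 17 DMSO wells. No 100 nM point overlaps a 1000 nM point of the same gene, and 100 nM is the highest condition for all 8 falls.

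Promoter windows are shown for the largest rise and for a pair of the largest falls, chosen after the search because their windows held a match. The window of LPAR6, which fell further, held none. RefSeq start sites (GRCh38.p14) were at hand for 10 of the 16 genes, 5 that rose and 5 that fell, with 11 windows of 250 bases before the start. Both strands were searched for the CArG box, which serum response factor binds, for the cyclic AMP response element TGACGTCA, the AP-1 site TGANTCA, the NF-kB site by its consensus and the TATA box TATAAA. None of the 11 windows held a CArG box, TGACGTCA or TGANTCA, which occur in 1.16%, 1.65% and 6.57% of all 35116 such windows. An NF-kB site was in 1 window (5.21% of all) and TATAAA in 3 (10.7% of all), those of BCL2A1, INHBA and 1 of 2 starts of ATF3. The windows of EGR4, with its NF-kB site in capitals, and of BCL2A1 and INHBA, with TATAAA in capitals, are printed 5′ to 3′ from the minus strand, at chr2:73293549-73293798, chr15:79971197-79971446 and chr7:41703091-41703340.
EGR4: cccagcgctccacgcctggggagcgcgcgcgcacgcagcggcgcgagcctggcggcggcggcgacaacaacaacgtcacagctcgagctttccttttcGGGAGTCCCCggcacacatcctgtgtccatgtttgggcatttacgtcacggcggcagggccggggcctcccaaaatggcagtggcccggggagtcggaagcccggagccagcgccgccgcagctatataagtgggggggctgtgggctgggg
BCL2A1: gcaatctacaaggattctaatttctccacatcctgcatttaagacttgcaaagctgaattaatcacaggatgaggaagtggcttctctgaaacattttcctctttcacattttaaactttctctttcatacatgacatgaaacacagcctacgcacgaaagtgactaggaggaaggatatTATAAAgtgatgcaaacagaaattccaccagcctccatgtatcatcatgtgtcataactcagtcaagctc
INHBA: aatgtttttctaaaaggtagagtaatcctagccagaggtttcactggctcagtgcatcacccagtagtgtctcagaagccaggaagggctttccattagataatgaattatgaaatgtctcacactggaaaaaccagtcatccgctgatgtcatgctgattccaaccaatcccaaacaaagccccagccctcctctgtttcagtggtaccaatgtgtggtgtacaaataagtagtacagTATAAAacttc

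The NF-kB match of EGR4 ends 142 bases before its start, the TATAAA of BCL2A1 ends 64 bases before its start and that of INHBA 5 bases before it. ATF3, with the other TATAAA, has it 224 bases before that start. A match of letters is a description and not a site of binding.

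Immediate early transcription factors, the first genes that growth signals switch on, include the EGR and AP-1 families. In the lists that follow, rose and fell mean an adjusted p under 0.05 of any size, to be read against 9.85% and 9.45% of all genes. List members named for their role although they were not among the most clearly changed were chosen after their values were seen. With 1 well left out, most list counts were lowest without 1000 nM replicate 2 or 100 nM replicate 2 and highest without 1000 nM replicate 1. Over all genes, far fewer passed 2-fold with replicate number as a block (140 raised, 179 lowered) or scaled to mitochondrial mRNAs (312 and 243). Of 6 EGR factors and their NAB corepressors 4 rose and 0 fell (0 at an unadjusted p under 0.05 and 0 by DESeq2), with a median log2 fold change of 0.90. EGR2 rose from 44.8, 46.4 and 53.9 CPM to 212, 178 and 165 CPM (1.92 ± 0.15, adjusted p 0.00067). EGR1, already at 3779, 4080 and 4703 CPM at 100 nM against a DMSO median of 66.9 CPM, rose by a smaller factor to 7239, 6161 and 5814 CPM (0.60 ± 0.12, adjusted p 0.015). NAB2, which binds EGR proteins and represses their activity, rose from 88.5, 97.0 and 118 CPM to 299.5, 213 and 191 CPM. Per length EGR1 was far the highest of them at 1000 nM, with a mean of 2905 TPM beside 789 TPM for FOS, 549 TPM for ATF3, 203 TPM for EGR4 and 89.6 TPM for EGR2.

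AP-1 is built from FOS, JUN and related leucine zipper proteins. Of 13 AP-1 factors tested, 6 rose and 2 fell (median 0.64). FOS rose from 411, 423 and 489.8 CPM to 1178, 1004 and 852 CPM (1.18 ± 0.15, adjusted p 0.0028), FOSB from 92.4, 97.2 and 106 CPM to 299, 266 and 206 CPM (1.37 ± 0.17). JUN, the main partner of FOS, rose by 0.85 (adjusted p 0.033) and JUND by 1.09 (adjusted p 0.033). FOSL1, a FOS relative that appears later after stimulation, fell from 497, 514 and 654 CPM to 399, 276 and 255 CPM (-0.85 ± 0.20, adjusted p 0.024). With 1 well left out, the number of AP-1 factors that rose ran from 3 without 1000 nM replicate 2 to 7 without 1000 nM replicate 3, and the highest adjusted p was 0.11 for FOSL1 without 1000 nM replicate 2 and 0.083 for EGR1 without 100 nM replicate 2.

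Other immediate early genes were divided. Of 17 tested, 4 rose and 1 fell, with a median of 0.12 (rises from 2 without 1000 nM replicate 2 to 6 without 1000 nM replicate 3). The orphan nuclear receptor NR4A3 rose from 16.4, 14.9 and 16.2 CPM to 45.1, 46.0 and 49.0 CPM (1.54 ± 0.14, adjusted p 0.00091) and its relative NR4A2 from 3.34, 3.35 and 3.64 CPM to 7.85, 8.24 and 6.67 CPM (1.12 ± 0.17). CCN1, a secreted matricellular protein, fell from 766, 749 and 831 CPM to 308, 288 and 269 CPM (-1.45 ± 0.11, adjusted p 0.00067), back to the range of DMSO (254 to 382 CPM). Of 12 Kruppel-like factors, 3 rose (from 1 without 1000 nM replicate 2, or without any 1 of the 100 nM wells, to 4 without 1000 nM replicate 1) and 2 fell. KLF15 rose the most, from 1.21, 1.01 and 1.67 CPM to 11.2, 6.84 and 5.83 CPM (2.60 ± 0.32), while KLF6 and KLF13 fell by 0.70 and 0.82 on the log2 scale, with adjusted p-values that reached 0.071 and 0.096 without 1000 nM replicate 2.

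Feedback genes of MAP kinase pathways gave no rise by the adjusted test. None of 9 MAP kinase phosphatases rose (2 at an unadjusted p under 0.05, 1 by DESeq2 and 1 without 1000 nM replicate 3) and 2 fell (4 without 1000 nM replicate 1, and 1 without any other single well). The one that kept its call throughout was DUSP5, a nuclear ERK phosphatase, from 75.3, 70.6 and 80.1 CPM to 36.6, 35.8 and 35.4 CPM (-1.08 ± 0.13, adjusted p 0.0023). None of 9 Sprouty, SPRED, ETV and related feedback genes rose (0 at an unadjusted p under 0.05 and 0 by DESeq2). The 1 that fell was ERRFI1, an inhibitor of EGFR, at 198, 185 and 154 CPM and 65.3, 111 and 111 CPM (-0.92 ± 0.23, adjusted p 0.032), which reached an adjusted p of 0.12 without 100 nM replicate 2.

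NF-kB dimers are held in the cytoplasm by inhibitors that are themselves NF-kB targets. Of 14 subunits and feedback inhibitors, 5 rose and 1 fell (median 0.33; rises from 2 without 100 nM replicate 2 to 6 without 1000 nM replicate 1). BCL3, a nuclear cofactor of the p50 and p52 subunits, rose from 7.10, 7.90 and 11.2 CPM to 51.8, 32.4 and 29.6 CPM (2.11 ± 0.27, adjusted p 0.0031). RELB, the subunit of the non-canonical pathway, rose from 200.2, 215 and 294 CPM to 692, 496 and 450.1 CPM (1.20 ± 0.21), and TNFAIP3, the deubiquitinase A20, from 178, 164 and 199 CPM to 375, 349 and 328 CPM (0.95 ± 0.13). The signalling adaptor TRAF1 fell, from 469.8, 482 and 637 CPM to 328, 226 and 246 CPM (-1.0 ± 0.18, adjusted p 0.01), though it stayed far above its DMSO median of 3.17 CPM. RELB reached an adjusted p of 0.053 without 100 nM replicate 2 and TRAF1 0.057 without 1000 nM replicate 2. RELA, NFKB1 and NFKB2, the main subunits, had log2 fold changes of -0.39, -0.26 and 0.07 and were not called.

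Of 13 cytokines and chemokines 4 rose (from 1 without 1000 nM replicate 2 or 100 nM replicate 2 to 5 without 1000 nM replicate 1) and 2 fell. CSF1, the macrophage growth factor, rose from 18.5, 19.2 and 25.6 CPM to 75.6, 57.7 and 53.5 CPM (1.55 ± 0.20, adjusted p 0.003). CSF2, the granulocyte and macrophage growth factor, fell with LIF, from 4.10, 4.05 and 4.96 CPM to 0.592, 0.711 and 0.554 CPM (-2.83 ± 0.21, adjusted p 0.00064). IL11, the highest per length, had a log2 fold change of -0.22 (adjusted p 0.34). Among 12 regulators of mRNA decay 3 rose (from 0 without 1000 nM replicate 2 or 100 nM replicate 2 to 4 without 1000 nM replicate 1) and 2 fell, and the proteins that bind AU-rich elements went both ways: ZFP36L1 fell from 912, 948 and 1132 CPM to 341, 257 and 252 CPM (-1.83 ± 0.16, adjusted p 0.00089), whereas ZFP36, tristetraprolin, rose from 79.9, 76.8 and 101 CPM to 191, 145 and 113 CPM (0.79 ± 0.21, adjusted p 0.039, and 0.16 without 100 nM replicate 2).

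EGFR, the receptor of the epidermal growth factor family, fell, and so did its ligands HBEGF and EREG and the related ligand NRG1. Of 7 genes of the set tested, 4 fell, all past 2-fold, and 0 rose (0 at an unadjusted p under 0.05 and 0 by DESeq2), with a median of -1.05. EGFR went from 125, 121 and 133 CPM at 100 nM to 33.7, 32.6 and 37.8 CPM at 1000 nM (-1.88 ± 0.13, adjusted p 0.00064), from above to below the DMSO range of 49.7 to 92.8 CPM. HBEGF, a membrane-bound ligand cut loose by proteases, went from 318, 308 and 327 CPM to 144, 145 and 129 CPM (-1.20 ± 0.12), and NRG1, a ligand of ERBB3 and ERBB4, from 29.6, 29.7 and 30.6 CPM to 8.60, 11.1 and 11.9 CPM (-1.52 ± 0.17). EREG fell by 1.05 on the log2 scale (adjusted p 0.0077, and 0.052 without 1000 nM replicate 2), and AREG, at -0.62, was not called (adjusted p 0.1).

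Genes of the extracellular matrix fell alongside. Of 16 collagens and other matrix proteins tested, 8 fell, 4 of them past 2-fold, and 0 rose (0 at an unadjusted p under 0.05 and 0 by DESeq2), with a median of -0.72. Tenascin C (TNC) fell from 426, 437 and 556 CPM to 109.6, 82.3 and 76.3 CPM (-2.41 ± 0.18, adjusted p 0.00065). The laminin chain LAMC1 fell from 318, 316 and 346 CPM to 124, 122 and 137 CPM (-1.37 ± 0.12) and the collagen chain COL6A1 from 306, 327 and 449 CPM to 139, 106 and 94.9 CPM (-1.69 ± 0.20). COL4A1, of basement membranes, was already under its DMSO median of 386 CPM at 100 nM, at 46.8, 53 and 64.7 CPM, and fell further to 22.6, 17.1 and 15.9 CPM (-1.58 ± 0.19). Fibronectin (FN1) and thrombospondin 1 (THBS1) were not called, at -0.16 and -0.02. The number that fell ran from 4 without 1000 nM replicate 2 to 12 without 1000 nM replicate 1.

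YAP and TEAD targets, which respond to cell shape and contact, went both ways: of 13 tested 5 rose (from 3 without 100 nM replicate 2 to 5 without 1000 nM replicate 1) and 3 fell. AMOTL1, a junction protein that binds YAP, fell from 293, 278 and 326 CPM to 87.8, 78.5 and 87.9 CPM (-1.83 ± 0.12, adjusted p 0.00064), as did CCN1 above. Tissue factor (F3) rose from 2.92, 3.13 and 2.61 CPM to 7.59, 6.42 and 7.31 CPM (1.28 ± 0.18), and the kinase NUAK2 from 8.21, 9.39 and 11.7 CPM to 28.8, 23.8 and 21 CPM (1.32 ± 0.19). Of 14 TGF-beta and BMP response genes 3 fell (1 without 1000 nM replicate 2, and 2 without any 1 of the 100 nM wells) and 0 rose (1 at an unadjusted p under 0.05 and 1 by DESeq2). Among them PMEPA1, an inhibitor of SMAD signalling, fell from 118, 135 and 151 CPM to 73.1, 54.2 and 48.9 CPM (-1.21 ± 0.19).

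Many genes that build ribosomes fell. Of 32 ribosome biogenesis genes, 19 fell, 9 of them past 2-fold, and 0 rose (0 at an unadjusted p under 0.05 and 0 by DESeq2). Their median was -0.69, and in 24 of them all 1000 nM wells lay below all 100 nM wells (18.3% of all genes). DKC1, the pseudouridine synthase of box H/ACA particles, fell from 239.7, 242 and 231 CPM to 57.8, 65.8 and 69.8 CPM (-1.90 ± 0.13, adjusted p 0.00064). RRS1, an assembly factor of the large subunit, fell from 84.0, 91.3 and 112 CPM to 33.4, 23.6 and 22.6 CPM (-1.86 ± 0.20), and NOP16, a nucleolar protein, from 113, 112 and 140.0 CPM to 45.9, 27.4 and 26.8 CPM (-1.88 ± 0.24). The 1000 nM wells lay below all DMSO wells for DKC1 and RRS1, and 1 of them lay within the DMSO range for NOP16. The number that fell ran from 8 without 100 nM replicate 2 to 24 without 1000 nM replicate 1, and with counts corrected for GC it was 30.

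MYC, which drives transcription of these genes, fell from 492, 540.2 and 655 CPM to 149, 98.6 and 105 CPM (-2.27 ± 0.20, adjusted p 0.00088), and its DMSO median was 142 CPM. Of 10 genes of the MYC and MAX network tested it alone fell, and 1 rose. MXD1, a MAX partner that opposes MYC, rose from 15.3, 14.8 and 13.8 CPM to 22.9, 24.2 and 25.3 CPM (0.71 ± 0.14, adjusted p 0.015, and 0.082 without 100 nM replicate 2).

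Ribosomal protein messages moved by less. Of 79, 25 fell and 0 rose (0 at an unadjusted p under 0.05 and 0 by DESeq2). The median was -0.46, the range -0.88 to 0.11, and 49 had all 1000 nM wells below all 100 nM wells (18.3% of all genes). RPL14, of the large subunit, fell from 673, 648 and 675 CPM to 429.5, 406 and 402 CPM (-0.71 ± 0.11, adjusted p 0.0055). RPS4X, of the small subunit, fell from 1719, 1676 and 1621 CPM to 1067, 1216 and 1148 CPM (-0.56 ± 0.11, adjusted p 0.013, and 0.085 without 100 nM replicate 2). The number that fell ran from 1 without 100 nM replicate 1 to 62 without 1000 nM replicate 1, with medians between -0.6 and -0.38. It was 63 with counts corrected for GC, but 0 scaled to mitochondrial mRNAs (median -0.40) and 0 with replicate number as a block (median -0.49). These genes share reads with many processed pseudogenes, which the counting could split.

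Translation factors fell in 6 of 30 cases, with 0 rises (1 at an unadjusted p under 0.05 and 1 by DESeq2) and a median of -0.36 (from 1 without 1000 nM replicate 2 to 12 without 1000 nM replicate 1). EIF3A, the scaffold of eIF3, fell from 669, 640.4 and 734 CPM to 409, 392 and 440.3 CPM (-0.73 ± 0.11, adjusted p 0.0055), and the helicase EIF4A1 from 1239, 1289 and 1281 CPM to 866, 951 and 871 CPM (-0.52 ± 0.10, adjusted p 0.015, and 0.1 without 100 nM replicate 2). Of 23 genes of cytosolic aminoacyl-tRNA synthetases and their scaffold, 6 fell and 0 rose (0 at an unadjusted p under 0.05 and 0 by DESeq2; falls from 2 without 1000 nM replicate 2 to 9 without 1000 nM replicate 1), led by the tyrosyl enzyme YARS1, from 306, 323 and 339 CPM to 186, 178 and 171 CPM (-0.87 ± 0.11). Small nucleolar RNA host genes, whose spliced transcripts are degraded during translation, gave 2 rises (1 without 1000 nM replicate 2 or any 1 of the 100 nM wells, and 4 without 1000 nM replicate 1) and 1 fall of 16 (0 without 1000 nM replicate 2 or 100 nM replicate 2). SNHG12 rose from 20.5, 20.5 and 23.1 CPM to 75.4, 64.1 and 53.1 CPM (1.57 ± 0.17, adjusted p 0.0018), while SNHG16 went from 195, 161 and 126 CPM to 79.3, 84.0 and 74.3 CPM (-1.04 ± 0.19, adjusted p 0.011, and 0.059 without 100 nM replicate 2). None of 10 factors of nonsense-mediated decay was called by edgeR (1 at an unadjusted p under 0.05) or DESeq2, and SMG1, the member with the highest CPM, was at 0.08 ± 0.23.

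**Figure D3:**
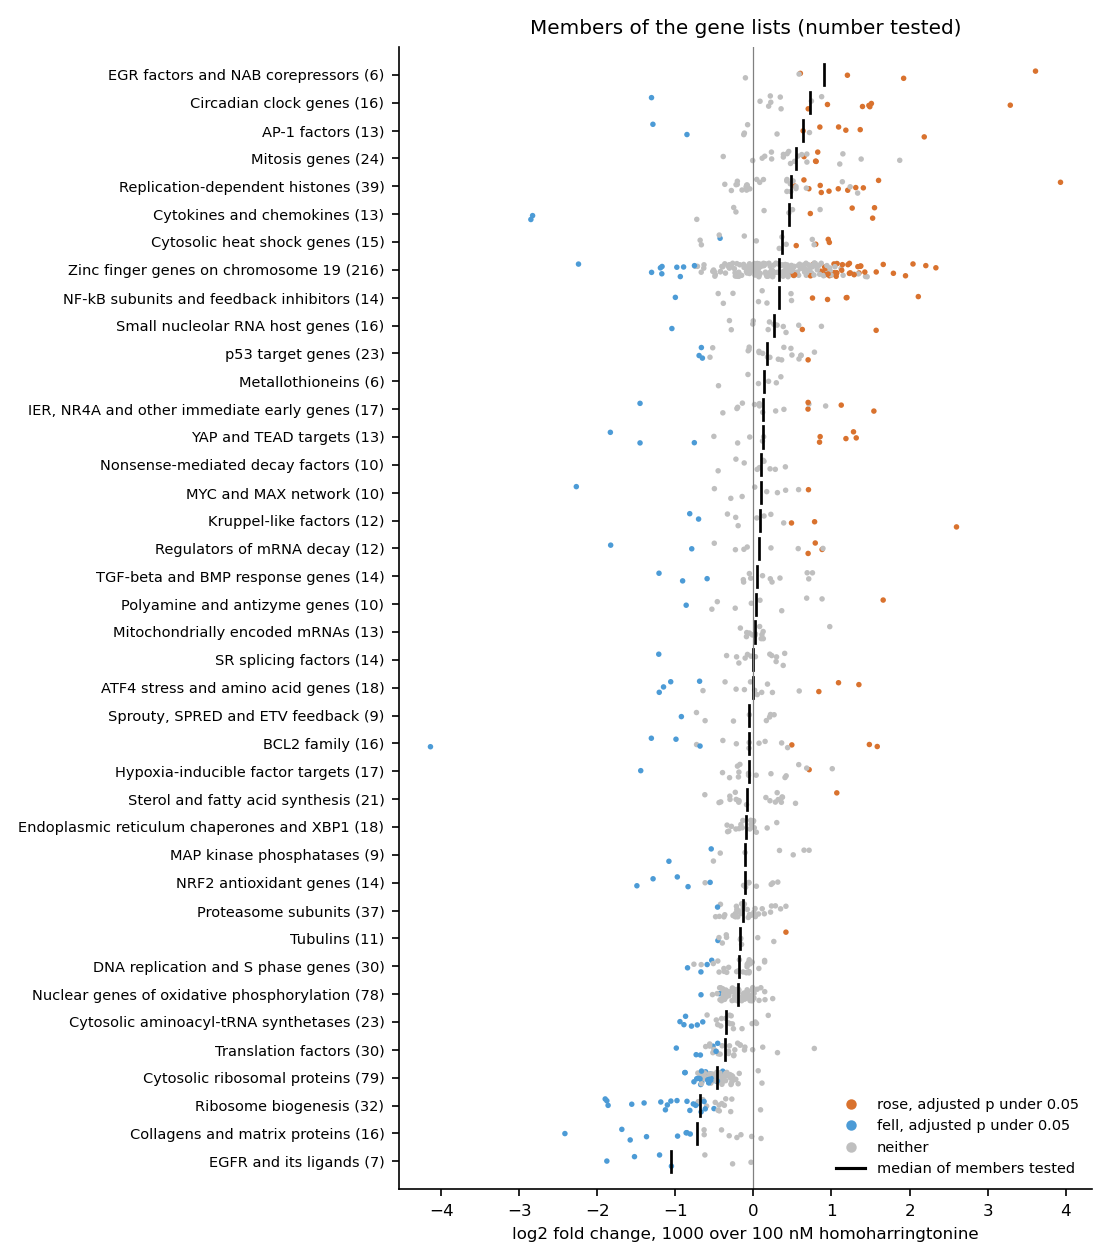
Log2 fold change of 1000 over 100 nM for the tested members of 40 gene lists of up to 216 tested members, 1 point per gene, relative to the bulk of genes, sorted by the list's median (black bar). Orange and blue points rose and fell at an adjusted p under 0.05 (edgeR), and the medians run from -1.05 for EGFR and its ligands to 0.90 for EGR factors and NAB corepressors.

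Stress programs held both rises and falls. ATF4 drives genes of amino acid supply when translation initiation is curbed: of 18 such genes 3 rose (from 0 without 100 nM replicate 2 to 2 without 1000 nM replicate 1) and 4 fell (from 2 without 1000 nM replicate 2 to 6 without 1000 nM replicate 1), and ATF4 itself was at -0.04. DDIT3, the CHOP factor, rose from 28.9, 30.2 and 34.2 CPM to 83.5, 63.1 and 53.7 CPM (1.09 ± 0.19, adjusted p 0.0096, and 0.057 without 100 nM replicate 2). TRIB3 fell from 33.4, 37.0 and 45.8 CPM to 19.9, 16.7 and 14.2 CPM (-1.21 ± 0.19) and SLC7A5, an amino acid transporter, from 565, 598 and 759 CPM to 356, 315 and 258 CPM (-1.06 ± 0.17), both under their DMSO medians of 78.8 and 1314 CPM. None of 18 chaperones of the endoplasmic reticulum and XBP1 was called by edgeR (2 with an unadjusted p under 0.05, both lower) or DESeq2, and CALR, with the highest CPM, was at 0.01 ± 0.15.

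Of 15 cytosolic heat shock genes 4 rose (from 0 without 1000 nM replicate 2 to 9 without 1000 nM replicate 1) and 1 fell. The cochaperone BAG3 rose from 135, 133 and 166 CPM to 371, 262 and 227 CPM (0.97 ± 0.20, adjusted p 0.017), and HSPA1A, an inducible HSP70 gene nearly identical to HSPA1B, from 64.1, 70.0 and 98.9 CPM to 190.4, 144 and 120.4 CPM (0.96 ± 0.22). Without 100 nM replicate 2 these reached adjusted p-values of 0.084 and 0.11. HSPA1A and HSPA1B, which rose too, lay below all 17 DMSO wells at both doses (lowest DMSO well 449 and 360 CPM). The 1000 nM wells of BAG3 lay above all of its DMSO wells (highest 134 CPM). NRF2 governs antioxidant enzymes, and its list holds NFE2L2, which encodes NRF2, and KEAP1 besides its targets. Of these 14 genes 5 fell and 0 rose (0 at an unadjusted p under 0.05 and 0 by DESeq2). The falls ran from 2 without 1000 nM replicate 2 to 6 without 1000 nM replicate 1. Thioredoxin reductase TXNRD1 fell from 512, 488 and 445 CPM to 145, 184 and 191 CPM (-1.49 ± 0.15, adjusted p 0.0014) and sulfiredoxin SRXN1 from 430.1, 419.6 and 431 CPM to 174, 181 and 177 CPM (-1.28 ± 0.11). The median of the list was -0.11.

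The BCL2 family, which decides on mitochondrial apoptosis, had 3 rises (1 without 1000 nM replicate 2, and 3 without 1000 nM replicate 1) and 4 falls among 16 members. Besides BCL2A1, the pore former BAK1 fell from 115, 117 and 144 CPM to 63.5, 46.8 and 42.9 CPM (-1.31 ± 0.19, adjusted p 0.0046) and BID from 33.8, 34.8 and 40.9 CPM to 21.3, 17.8 and 16.4 CPM (-0.99 ± 0.16). BIK, a pro-apoptotic BH3-only protein, rose from 1.89, 2.09 and 2.38 CPM to 8.03, 5.31 and 4.63 CPM (1.49 ± 0.25). MCL1, a short-lived survival protein, was at 0.07 (adjusted p 0.72). Of 23 p53 targets 1 rose and 3 fell (0 and 0 without 1000 nM replicate 2), GADD45A among the latter, from 773, 723 and 834 CPM to 518, 464 and 470.4 CPM (-0.70 ± 0.11, adjusted p 0.0069, and 0.051 without 1000 nM replicate 2).

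Metabolic lists gave few calls. Of 17 hypoxia-inducible factor targets 1 rose and 1 fell, the latter being the peptide hormone adrenomedullin (ADM), from 29.8, 31.3 and 34.8 CPM to 14.2, 11.5 and 9.95 CPM (-1.44 ± 0.17, adjusted p 0.0025). Of 10 polyamine and antizyme genes, SAT1, which acetylates spermidine for breakdown, rose from 10.2, 9.04 and 8.39 CPM to 26.0, 31.6 and 31.1 CPM (1.66 ± 0.17, adjusted p 0.0014), and SRM, spermidine synthase, fell by 0.86 on the log2 scale (adjusted p 0.022, and 0.1 without 1000 nM replicate 2). Of 21 genes of sterol and fatty acid synthesis only the regulator SREBF1 rose, from 33.2, 41.0 and 52.8 CPM to 111, 83.6 and 73.0 CPM (1.07 ± 0.22, adjusted p 0.017, and 0.079 without 100 nM replicate 2). None of 6 metallothioneins was called by edgeR (1 lower at an unadjusted p under 0.05) or DESeq2.

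Clock genes gave 7 rises. In the circadian loop BMAL1 and CLOCK switch on PER, CRY and NR1D repressors, which then shut them off. Of 16 clock genes 7 rose and 1 fell, with a median of 0.72. NR1D1, the REV-ERB alpha repressor, rose from 206, 232 and 262 CPM to 812, 621 and 549 CPM (1.49 ± 0.17, adjusted p 0.0022), PER1 from 156, 185 and 236 CPM to 635, 476 and 421 CPM (1.4 ± 0.20), and BHLHE41 from 9.52, 11.2 and 10.2 CPM to 28.8, 26.6 and 31.6 CPM (1.48 ± 0.15). BHLHE40, the close relative of BHLHE41, fell from 503, 495 and 578 CPM to 259.8, 190.2 and 194 CPM (-1.30 ± 0.16, adjusted p 0.0024). The activators BMAL1 and CLOCK were not called, at 0.20 and 0.09. The number that rose ran from 5 without 100 nM replicate 2 to 9 without 1000 nM replicate 1.

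Replication-dependent histone messages, which normally end in a stem loop without a poly(A) tail, were measured here in poly(A)-selected libraries. Of 64 such genes 39 passed the filter on low counts, 12 rose and 0 fell (0 at an unadjusted p under 0.05 and 0 by DESeq2), with a median of 0.48 (from 4 without 100 nM replicate 2 to 13 without 1000 nM replicate 3 with 1 well left out). H2AC6, with the smallest p, rose from 93.7, 92.8 and 93.8 CPM to 227, 212 and 264 CPM (1.31 ± 0.13, adjusted p 0.0014), and H4C14 from 176, 178 and 177 CPM to 350.3, 331 and 298 CPM (0.87 ± 0.12). Members that passed only through the wells where they were high had to differ, and near-identical copies such as H4C14 and H4C15 may share reads. Of 24 mitosis genes 4 rose and 0 fell (0 at an unadjusted p under 0.05 and 0 by DESeq2; median 0.55). The kinesin KIF20A rose from 72.1, 75.3 and 76.9 CPM to 122, 142 and 131 CPM (0.80 ± 0.13, adjusted p 0.0066, and 0.051 without 100 nM replicate 2) and the kinase PLK1 from 126, 140.4 and 167 CPM to 306, 238 and 214 CPM (0.80 ± 0.17, adjusted p 0.02, and 0.093 without the same well), both below their DMSO medians of 277 and 347 CPM. The mitosis count ran from 0 without 100 nM replicate 2 to 15 without 1000 nM replicate 1, and 15 with counts corrected for GC.

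Of 30 genes of DNA replication 4 fell (from 1 without 1000 nM replicate 2 to 9 without 1000 nM replicate 1) and 0 rose (0 at an unadjusted p under 0.05 and 0 by DESeq2), with a median of -0.19. MCM10, a DNA replication factor, fell from 122, 126 and 120.4 CPM to 65.0, 69.5 and 72.7 CPM (-0.84 ± 0.13, adjusted p 0.0053), and the helicase subunit MCM3 from 156, 182 and 190.5 CPM to 126, 108 and 101 CPM (-0.67 ± 0.14, adjusted p 0.019, and 0.1 without 100 nM replicate 2). Of 11 tubulins, which share long stretches of sequence, TUBA1A rose by 0.42 and TUBA1B fell by 0.45 on the log2 scale (adjusted p 0.049 and 0.027). These reached 0.18 without 1000 nM replicate 2 and 0.13 without 100 nM replicate 2.

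Zinc finger genes of the chromosome 19 clusters, mostly KRAB repressors, rose more often than they fell: of 216 tested 37 rose (17.1%) and 9 fell (4.17%), with a median of 0.33. ZNF671 rose from 22.2, 20.6 and 21 CPM to 40.4, 47.3 and 47.5 CPM (1.07 ± 0.14), and ZNF101 from 4.29, 4.65 and 4.43 CPM to 10.4, 9.59 and 9.80 CPM (1.14 ± 0.15). ZNF792 ran against them, from 6.55, 7.78 and 6.78 CPM to 1.06, 1.89 and 1.55 CPM (-2.24 ± 0.25, adjusted p 0.0018). The number that rose ran from 8 without 1000 nM replicate 2 to 90 without 1000 nM replicate 1. In 5 equal bins of GC content, from low to high, the median log2 fold change of genes was 0.17, 0.03, -0.08, -0.03 and 0.08, and with counts corrected for GC 73 of these genes rose and 23 fell.

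Genes of energy supply and protein turnover gave few calls. None of 13 mitochondrially encoded mRNAs was called, at an adjusted or an unadjusted p under 0.05 (0 of 13 by edgeR and by DESeq2), and MT-CO1 was at -0.01 ± 0.21. Of 78 nuclear genes of oxidative phosphorylation 2 fell and 0 rose (0 at an unadjusted p under 0.05 and 0 by DESeq2), and of 37 proteasome subunits 1 fell and 0 rose (0 at an unadjusted p under 0.05 and 0 by DESeq2). PSMD2, the proteasome subunit called, went from 1496, 1574 and 1721 CPM to 1215, 1174 and 1128 CPM (-0.46 ± 0.10, adjusted p 0.021, and 0.11 without 100 nM replicate 2). Without 1000 nM replicate 1, 23 and 9 genes of these lists fell, and 0 of either without 1000 nM replicate 2. Of 14 SR splicing factors 1 fell and 0 rose (3 at an unadjusted p under 0.05 and 0 by DESeq2), namely SRSF12 (-1.21, adjusted p 0.016), and SRSF3, with the highest CPM, was at -0.03 ± 0.11.

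By structure, 108 of 1248 long genes (over 200 kb) rose and 133 fell, 8.65% and 10.7%, beside 9.85% and 9.45% of all genes (rises from 18 without 1000 nM replicate 2 to 250 without 1000 nM replicate 1, falls from 60 without 1000 nM replicate 2 to 171 without 1000 nM replicate 1). NAV3, a neuron navigator protein, fell from 136, 127 and 128 CPM to 19.4, 23.1 and 29.0 CPM (-2.46 ± 0.18, adjusted p 0.00064) and the RNA-binding protein CELF2 from 44.6, 33.0 and 37.3 CPM to 5.38, 5.42 and 7.13 CPM (-2.70 ± 0.20). PKD1L1, a polycystin relative, rose from 16.8, 16.1 and 19.6 CPM to 64.8, 65.6 and 61.4 CPM (1.86 ± 0.14). Of 248 single-exon genes 17 rose (6.86%) and 39 fell (15.7%; from 12 without 100 nM replicate 2 to 65 without 1000 nM replicate 1), such as the forkhead factor FOXC1, from 23.4, 23.5 and 23.0 CPM to 9.17, 9.08 and 9.10 CPM (-1.37 ± 0.13). By biotype, pseudogenes rose in 195 of 995 cases (19.6%) and fell in 50 (5.03%), and their share of counts was 0.511 to 0.533% at 100 nM and 0.593 to 0.613% at 1000 nM. Long noncoding RNAs fell more often than they rose, 186 against 104 of 1691.

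From 1000 to 10000 nM, of 18276 genes tested, 229 rose (1.25%) and 387 fell (2.12%) at an adjusted p under 0.05. The contrast of both steps, which share the 1000 nM wells, gave 476 genes (2.6%) whose second step differed from the first. The genes named below were chosen by their first step, which the contrast subtracts. That choice favours a difference of opposite sign to the first step, so their differences are descriptions. FOS, FOSB and NR1D1 moved by -0.04, -0.07 and 0.09 on the log2 scale between the last doses, and the second step differed from the first by -1.19, -1.4 and -1.36 (adjusted p 0.018, 0.017 and 0.017). NAB2 turned round, from 299.5, 213 and 191 CPM to 54.4, 60.2 and 52.3 CPM (log2 fold change -2.05 ± 0.17, adjusted p 0.00058; difference of steps -3.22 ± 0.27, adjusted p 0.0034). KLF10, a TGF-beta inducible factor whose first rise reached an adjusted p of 0.11 without 100 nM replicate 2, did so too, from 1099, 1006 and 1062 CPM at 100 nM through 1498, 1494 and 1497 CPM to 849, 847 and 852 CPM (-0.80 ± 0.08, adjusted p 0.00095; difference -1.26 ± 0.13, adjusted p 0.004). So did tissue factor (F3), which fell from 7.59, 6.42 and 7.31 CPM to 4.62, 4.80 and 3.94 CPM (-0.66 ± 0.14, adjusted p 0.041; difference -1.91 ± 0.24, adjusted p 0.0079).

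Other genes kept going in the same direction. MYC fell again, from 149, 98.6 and 105 CPM to 36.0, 35.5 and 34.1 CPM (-1.72 ± 0.16, adjusted p 0.00085), and the difference of its steps was not called (0.59 ± 0.27, adjusted p 0.3). BHLHE40, AMOTL1 and SRXN1 fell by 1.42, 1.20 and 1.02 on the log2 scale in the second step (adjusted p 0.00066, 0.00069 and 0.0006). SAT1 and H4C14 rose on, to 59.8, 65.4 and 54.5 CPM (1.03 ± 0.15, adjusted p 0.0063) and 549.8, 572 and 529 CPM (0.77 ± 0.09, adjusted p 0.0025). MUC5AC, in contrast, had 1.97, 1.92 and 2.02 CPM at 10000 nM (0.32 ± 0.25, adjusted p 0.52; difference 4.95 ± 0.45, adjusted p 0.004), and DKC1 had 48.5, 47.3 and 51.6 CPM, all below its 1000 nM wells (-0.38 ± 0.11, adjusted p 0.11; difference 1.54 ± 0.20, adjusted p 0.0081). The count of 476 was 18 without 1000 nM replicate 2, 887 without 1000 nM replicate 1, 141 and 263 without 100 nM replicates 2 and 1, and 129 to 143 without any 1 of the 10000 nM wells. Both steps rest on the same 1000 nM wells.

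**Figure D4:**
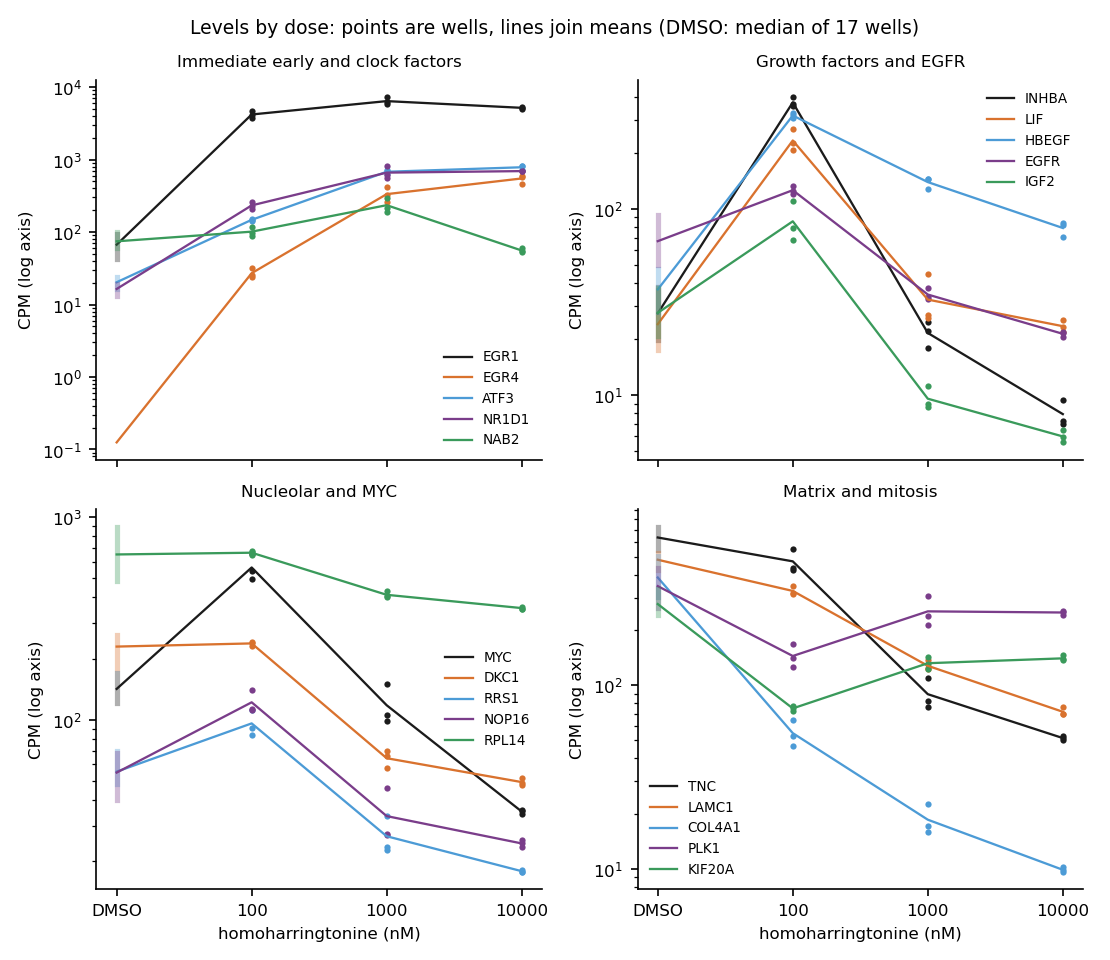
Levels in CPM (log axes) of 20 named genes in DMSO (median of 17 wells, with a shaded bar from lowest to highest, left out for EGR4 whose lowest is 0) and at 100, 1000 and 10000 nM homoharringtonine, where points are wells and lines join the means. INHBA, LIF, HBEGF, EGFR, IGF2 and MYC are highest at 100 nM and lower at 1000 nM relative to the bulk of genes, while EGR4, ATF3 and NR1D1 are higher at 1000 than at 100 nM and NAB2 is highest at 1000 nM.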

How the data were processed

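RNA of U2OS cells in 24-well plates was taken after 12 h of compound and made into poly(A)-selected, stranded libraries, 1 per well. The authors ran an RSEM workflow and deposited, per well, an expected count and a TPM value for each gene. GRCh38 is named in the submitters' notes, and the RSEM version, annotation release and strand setting are not given in the sources used here. Each table held 60371 rows, of which 92 were spike-in RNAs and were left out of sums, levels and tests, and 56104 of 60279 gene IDs were found in GENCODE 44. The DESeq2 and HTSeq named in the same notes were not part of the values used.

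Expected counts were rounded to whole numbers, filtered by expression (filterByExpr, smallest count 10), scaled by TMM and tested with edgeR 4.0.16 quasi-likelihood in R 4.3.3, on 6 wells without covariates, with Benjamini-Hochberg adjustment over all genes tested. Raised or lowered over 2-fold means an adjusted p under 0.05 with a log2 change of more than 1 in size. Standard errors are the fold change divided by the square root of F. Levels are CPM scaled by TMM over homoharringtonine and all 18 DMSO wells. Levels of different genes are compared in TPM, while filters and the choice of named genes use CPM. The step from 1000 to 10000 nM and the difference of both steps came from 1 fit on 9 wells, and the miglitol step from its own 6 wells. Depth was 34.9 to 57.4 mil counts in the 6 wells, so that p-values are limited by the number of wells. No 2 wells of a dose agreed within sampling noise (chi-square per degree of freedom 10.4 to 224).

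Named genes were the 8 largest rises and 8 largest falls among protein-coding genes called over 2-fold with a mean of at least 10 CPM and no overlap of wells, EIF4E, and in each of 42 lists up to 4 members of at least 1 CPM with the smallest p among those with an adjusted p under 0.05, or else the member with the highest CPM. The dose step, lists and genes were chosen with earlier results of these data known. RELA, NFKB1, NFKB2, JUN, JUND, AREG, FN1, THBS1, ATF4, MCL1, BMAL1, CLOCK, IL11, SRSF12 and the genes of the closing section were named after their values were seen. Alternatives were RLE size factors, library sizes, mitochondrial mRNAs or spike-ins as the scale, DESeq2 1.42.0, other filters, a GC offset, a replicate block, more wells in the fit and each well left out. Both spike-in settings were chosen after seeing the data. A gene that the rule names is not reported here. The labels give no plate or batch. The scripts (Python 3.11.15 for lists and figures) were tested on simulated data. Promoter windows came from RefSeq (GRCh38.p14).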

Additional observations from a re-analysis of the deposited data

How the results depend on the processing

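The 1836 genes called over 2-fold kept the sign of their change under 18 of 19 alternatives (with at least 10 counts in every well, 1473 of them were tested), and 1205 of them when scaled to spike-ins. The counts raised and lowered were 1060 and 776 in the comparison as reported. They were 8731 and 9 scaled to spike-ins (chosen after seeing the data), with a median of all genes of 2.07, 312 and 243 scaled to mitochondrial mRNAs, and 140 and 179 under the replicate block. Whether the replicate numbers pair the wells is not given. Deviations of wells with the same number correlated at -0.482, 0.152 and -0.605, and no well correlated best with its own number. With 3 wells per dose that also differed in GC slope, this check cannot tell whether wells of a number shared a batch. With 1 well left out the counts ran from 466 to 1388 raised and 455 to 1055 lowered. Library sizes alone gave 1340 and 639 (67.7% raised against 57.7%, with a median of all genes of 0.13), a GC offset 1257 and 896, the block with a GC offset 1067 and 820, DESeq2 1163 and 804, and no filter 1343 and 818.

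The 476 genes whose steps differed became 1132 with DESeq2, 3039 with a GC offset, 2697 with the block and a GC offset, 1 scaled to mitochondrial mRNAs (1594 at an unadjusted p under 0.05) and 0 with the block in edgeR (2500 at an unadjusted p under 0.05). With 1 well left out they ran from 18 to 887. The causes were not tested. The miglitol step gave 0 genes under every alternative run, with 61 to 650 at an unadjusted p under 0.05. Without 100 nM replicate 2, 51 of 147 named genes (those of the closing section included) lost their call, and without 1000 nM replicate 2, 49 of them. Losses were larger scaled to mitochondrial mRNAs, 98 of the 147, and under the replicate block, 87.

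With 3 wells per dose, genes with changes of about the spread between wells cannot be called. Wells of a group were too few to look for single outlying values. Levels under 1 CPM rest on few counts.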

Other observations

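Several messages with high CPM at 100 nM fell as well. They lie outside the rule for named genes and were chosen after their values were seen, so their changes are descriptions from the same edgeR fit. FLNC, filamin C, an actin crosslinker of muscle, had a mean of 9901 CPM at 100 nM and 2618 CPM at 1000 nM (log2 fold change -1.93 ± 0.20 SE, adjusted p 0.0015), and 897 CPM at 10000 nM. GPC1, a heparan sulfate proteoglycan that binds growth factors, went from 1980 to 358 CPM (-2.48 ± 0.20, adjusted p 0.00067), and LAMB3, a laminin chain, from 1078 to 367 CPM (-1.56 ± 0.20, adjusted p 0.0028). AKAP12, a scaffold of protein kinase A, went from 1023 to 279 CPM (-1.89 ± 0.13), CD44, the hyaluronan receptor, from 778 to 248 CPM (-1.67 ± 0.11), and SLC7A1, a cationic amino acid transporter, from 564 to 145 CPM (-1.97 ± 0.13), each at an adjusted p of 0.00064.

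Among messages with high CPM that rose, MIDEAS, a subunit of a mitotic histone deacetylase complex, went from a mean of 531 to 1104 CPM (1.04 ± 0.16, adjusted p 0.0054) and TUFT1, tuftelin, from 249 to 552 CPM (1.14 ± 0.12, adjusted p 0.0018). All 8 genes kept their call with any 1 of the 6 wells left out, with a highest adjusted p of 0.039 for MIDEAS without 100 nM replicate 2. Scaled to spike-ins, log2 fold changes move up by a median of 2.01. The shift differed between genes, so it does not settle the sign of each of these 6 falls.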
